A study of Homo sapiens with 4 samples.

Results

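The levels of 9 tight junction genes were compared in A549 cells, a human lung adenocarcinoma cell line, between cells transduced with an FCN3-expressing virus and cells transduced with a control empty virus (EV). The genes were 6 claudins (CLDN1, CLDN2, CLDN3, CLDN4, CLDN7 and CLDN12), the occludin gene OCLN, the junctional adhesion molecule gene F11R and the scaffold gene TJP1. They were found by their symbols among 25192 genes, and all 9 had a row in the 4 libraries. CLDN2 was chosen by its fall in these same libraries, so its values are given as a description with no test. The others were set beside it because they belong to the same junction, with earlier results of these data known. The 4 RNA-seq libraries were 2 from EV cells and 2 from cells with the FCN3 virus, taken 48 h after infection, with no sorting of cells named in the labels. Both viruses come from the same retroviral vector, which also expresses GFP, so GFP is shared by both groups, and the FCN3 virus adds the coding sequence of FCN3, a lectin of the complement system, with a V5 tag at its end. Nothing in the labels says that the replicates of a group were separate cultures. The p-values therefore rest on the spread between these libraries, which the tests partly pool over all tested genes.

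Tight junctions seal the space between neighbouring epithelial cells near their apical side. Claudins are small proteins with 4 membrane-spanning segments that join into strands, and they differ in what the strand lets through. Some close the path between cells, while CLDN2 forms a channel for small cations and water and is known from leaky epithelia such as the proximal tubule of the kidney. OCLN and F11R are membrane proteins of the same belt that are not claudins, and TJP1, also called ZO-1, ties the strands to actin.

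The expected counts, which are read numbers estimated by RSEM, summed to between 16353554 and 35733735 per library, with the replicate 1 libraries deeper than those of replicate 2. FCN3 itself had 1 and 0 counts in EV cells against 722388 and 448352 in cells given its virus, as the labels say. All 8 markers examined for A549 as an epithelial line were at 1 TPM or more in every library (TPM is a level per transcript length whose total is the same in each library). They were 4 keratins, CDH1 and EPCAM, and also CDH2 and VIM, genes known from mesenchymal cells that this line expresses too. CDH2 (log2 fold change 0.53) and VIM (0.38) were higher and CDH1 (-0.53) and EPCAM (-1.12) lower with the FCN3 virus, each called by edgeR with the replicate block and none without it (adjusted p from 0.0319 to 0.45). The keratins KRT19 (1.24), KRT18 (0.31) and KRT8 (0.26) of the same list were higher. They too were called by edgeR with the block and not without it (adjusted p from 0.0397 to 0.405). KRT7 (0.09) was called in neither fit. All 5 endothelial markers were under 1 TPM, and 4 of 6 leukocyte markers and 6 of 7 fibroblast markers were under it too. Of 9 alveolar markers 6 were under 1 TPM in every library, and 2 of them had no count. The leukocyte list summed to 35.89 and 36.8 TPM in EV cells and 62.76 and 50.15 TPM with the FCN3 virus, nearly all of it CD68, a lysosomal gene, while CD3E, a defining gene of T lymphocytes, had no count in any library. Summed alveolar markers were at 18.37 and 20.77 TPM against 24.15 and 26.48 TPM. The part of these markers in the members' values was not tested. MALAT1 and NEAT1, a pair of nuclear RNAs, summed to 118.1 and 113.5 TPM in the replicate 1 libraries and 272.7 and 272 TPM in the replicate 2 libraries, so these libraries also differed by replicate number. With the condition in the model, edgeR's quasi-likelihood test called 22.2% of 14099 tested genes between replicate 1 and replicate 2 at an FDR of 0.01. The labels give the number and no batch or day. Because the members are compared by replicate number, the tests of the members are given without and with that number as a block. With so few libraries, the block leaves little information on spread within each gene. The p-values with the block thus rest largely on a spread pooled over all tested genes.

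The promoters of CLDN2, the gene whose level was lower, and of OCLN and CLDN4, whose levels were higher with the FCN3 virus, are printed as the reference sequence next to those values. Each is the 250 bases before an annotated RefSeq start, on GRCh38.p14, 5′ to 3′ on the strand of the gene, with matches to the motifs named below in capitals. CLDN2 has 2 such starts, at chrX:106899914-106900163 and chrX:106918110-106918359 on the plus strand. The first of 2 starts of OCLN is at chr5:69492297-69492546 and that of CLDN4 at chr7:73830746-73830995, both on the plus strand.
CLDN2 start 1: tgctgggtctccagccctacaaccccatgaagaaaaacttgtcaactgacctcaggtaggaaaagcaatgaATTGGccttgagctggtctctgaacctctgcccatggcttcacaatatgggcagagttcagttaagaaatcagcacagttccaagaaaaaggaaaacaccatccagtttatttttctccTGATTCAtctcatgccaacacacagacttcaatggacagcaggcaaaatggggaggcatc
CLDN2 start 2: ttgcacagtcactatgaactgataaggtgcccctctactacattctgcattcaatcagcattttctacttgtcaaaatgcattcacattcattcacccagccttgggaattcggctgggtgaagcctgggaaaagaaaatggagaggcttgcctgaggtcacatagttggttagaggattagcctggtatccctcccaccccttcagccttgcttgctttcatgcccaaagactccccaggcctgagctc
OCLN start 1: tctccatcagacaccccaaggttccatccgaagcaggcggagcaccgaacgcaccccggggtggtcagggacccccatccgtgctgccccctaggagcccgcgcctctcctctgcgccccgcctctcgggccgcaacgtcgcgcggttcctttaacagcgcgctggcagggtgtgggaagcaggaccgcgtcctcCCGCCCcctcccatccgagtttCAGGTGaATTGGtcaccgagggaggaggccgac
CLDN4 start 1: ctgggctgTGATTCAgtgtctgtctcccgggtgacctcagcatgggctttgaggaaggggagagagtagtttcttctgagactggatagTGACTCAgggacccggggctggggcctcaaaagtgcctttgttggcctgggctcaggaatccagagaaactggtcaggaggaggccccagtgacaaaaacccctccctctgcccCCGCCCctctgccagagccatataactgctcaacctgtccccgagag

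The CLDN2 starts had a GC content of 46% and 48.8%, against a median of 58% over 35116 RefSeq promoters of the same length, 68.8% at the first start of OCLN and 58.8% at that of CLDN4. Motifs were searched on both strands. A GC box (GGGCGG) was found before OCLN start 1 and CLDN4 start 1 and at neither CLDN2 start, and 42.6% of all promoters hold one. A CCAAT box (CCAAT, in 32% of promoters) and an AP-1 site (TGANTCA, in 6.57%) stood before the first CLDN2 start, and none of the motifs stood before the second. OCLN start 1 also held a CCAAT box and an E-box of the SNAI and ZEB factors (CAGGTG, in 17.5%), and CLDN4 start 1 held 2 AP-1 sites. The second start of OCLN, with a GC content of 70.8%, held an E-box and, like CLDN2, no GC box. CLDN12 start 1, of a gene higher in both FCN3 virus libraries, had a GC content of 54.4%. It held a CCAAT box and no GC box. Of the 14 member starts examined, 8 held a GC box. A TATA box (TATAAA, 10.7%), a CDX site (TTTATG, 9.64%) and a CEBP-ATF response element (TGATGNAA, 3.14%) were absent from all 14 starts of the 8 members that are in the table. F11R is not in it. A CRE (TGACGTCA, 1.65%) and the core of the UPR element (TGACGTGG, 0.612%), motifs that share their first letters, were each found at 1 of the 14, the former at CLDN7 and the latter at CLDN3. These are matches of letters in short windows and do not show that a factor binds there.

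CLDN2 was at a similar level in both EV libraries and several times lower in both libraries with the FCN3 virus. Its expected counts were 680 and 354 in EV replicates 1 and 2, and 117 and 48 in FCN3 virus replicates 1 and 2. Scaled for depth by the TMM method, these were 18.66 and 21.15 CPM (counts at a common library size) against 3.449 and 2.413 CPM. The groups did not overlap, and the lower EV library stood several times above the higher FCN3 virus library. The means were 19.9 ± 1.76 CPM for EV and 2.93 ± 0.733 CPM for the FCN3 virus (SD, n = 2 in each group). In the edgeR fit the level was 6.55-fold lower. The log2 fold change from edgeR was -2.71 (standard error, SE, 0.21), and -2.70 (SE 0.13) with the replicate block. Between libraries of the same number it was -2.41 in replicate 1 and -3.09 in replicate 2. Only 17 of the 14099 tested genes had a lower log2 fold change. In RNA from a whole culture, fewer cells with CLDN2 and less CLDN2 RNA per cell cannot be told apart.

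Per length, the 9 genes spanned a wide range of levels in each library. CLDN1, a claudin that closes the path between cells, was the highest at 110.06 and 106.02 TPM in EV cells and 96.15 and 108.4 TPM with the FCN3 virus. TJP1 followed at 80.14 and 76.98 TPM in EV cells and 92.31 and 94.47 TPM with the FCN3 virus, and its range did not meet that of CLDN1 in either group. CLDN7, a claudin of the basolateral side in many epithelia, was the lowest at between 0.18 and 0.28 TPM, from 3 to 8 counts per library, and was left out of the tests. In EV cells CLDN2 stood at 12.37 and 13.89 TPM, beside CLDN12 at 15.05 and 13.4 TPM, and the ranges of this pair overlapped. With the FCN3 virus CLDN2 stood at 2.1 and 1.5 TPM, below both libraries of CLDN3 (2.88 and 4.83 TPM) and of CLDN4 (3.03 and 3.59 TPM). OCLN stood below both CLDN2 and CLDN12 in EV cells, at 8.18 and 6.58 TPM. With the FCN3 virus it was at 16.8 and 14.29 TPM, where its range overlapped that of CLDN12 (16.6 and 14.83 TPM).

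**Figure D1:**
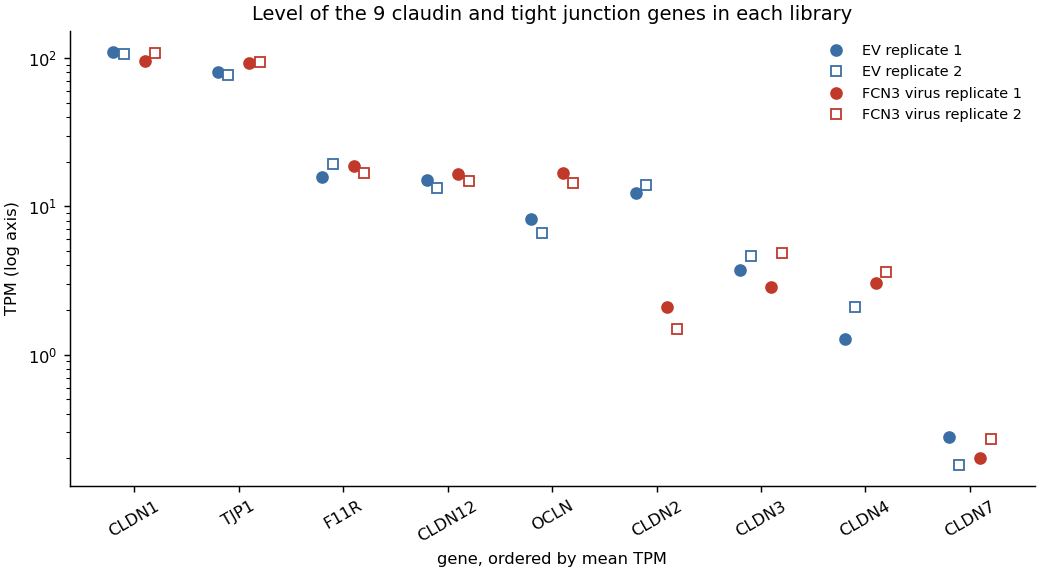
Level in TPM (log axis) of the 9 genes in each of the 4 libraries, ordered by mean level, with EV in blue, the FCN3 virus in red, replicate 1 as filled circles and replicate 2 as open squares. CLDN2 drops from 12.37 and 13.89 TPM in EV to 2.1 and 1.5 TPM with the FCN3 virus, OCLN moves from 8.18 and 6.58 to 16.8 and 14.29 TPM, and CLDN1 stays near 100 TPM in every library.

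The makeup of the claudin transcripts was examined next, since TPM allows claudins to be compared with each other. Of 23 claudins in the tables, 7 were at 1 TPM or more in every library (CLDN1, CLDN2, CLDN3, CLDN4, CLDN12, CLDN15 and CLDN23), 16 were under 1 TPM in every library and 6 of these had no count at all. CLDN1 made up 70.4% and 65.8% of the summed claudin TPM in EV cells and 71.7% and 71.6% with the FCN3 virus. The share of CLDN2 was 7.91% and 8.62% in EV cells and 1.57% and 0.99% with the FCN3 virus, means of 8.27 ± 0.503% and 1.28 ± 0.407% (SD, n = 2 in each group). CLDN2 was thus the third or second claudin by share in the EV libraries and the seventh of these in both FCN3 virus libraries. CLDN4 went the other way, from 0.819% and 1.3% to 2.26% and 2.37%. CLDN15, like CLDN2 a claudin that forms cation channels, followed the replicate number and not the virus, with 4.7% and 5.22% in the replicate 1 libraries and 8.24% and 7.67% in the replicate 2 libraries. The claudins together summed to 156.4 and 161.1 TPM in EV cells and 134.1 and 151.5 TPM with the FCN3 virus. FCN3 itself was at 0.06 and 0 TPM in EV cells and 41617.53 and 44729.6 TPM with its virus. As the TPM total is fixed, this lowers the TPM of all other genes in the FCN3 virus libraries. The sums contain that effect, while shares and ratios within a library do not. Within a library, CLDN1 was 8.9 and 7.63 times as abundant as CLDN2 in EV cells and 45.8 and 72.3 times as abundant with the FCN3 virus. OCLN stood at 0.661 and 0.474 times the level of CLDN2 in EV cells and at 8 and 9.53 times with the FCN3 virus. These shares and ratios contain the fall by which CLDN2 was chosen and are descriptions.

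**Figure D2:**
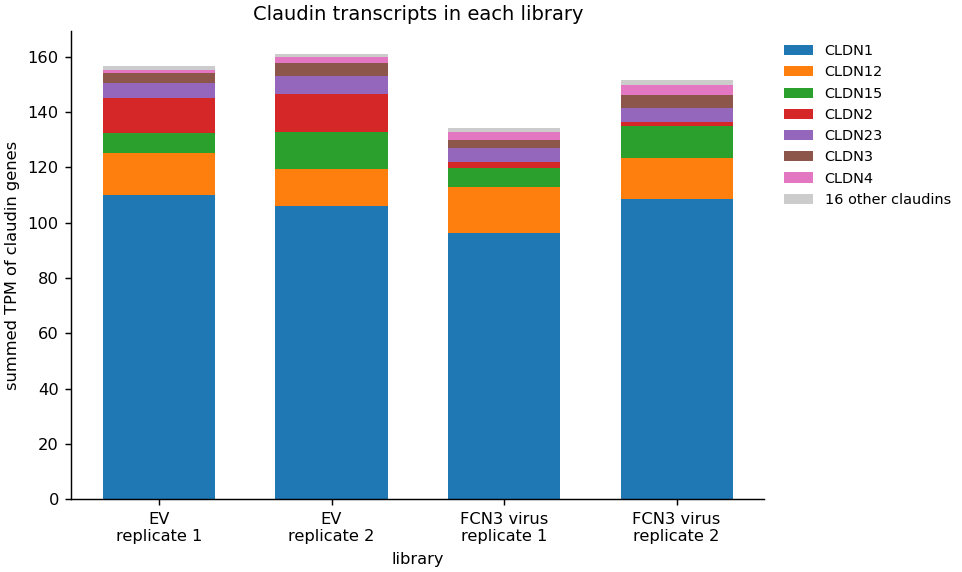
Summed TPM of the claudin genes in each library, stacked by gene, with 16 claudins under 1 TPM shown together in grey. CLDN1 (blue) is the bulk of every bar, and the CLDN2 band (red) is 7.91% and 8.62% of the bar in the EV libraries and 1.57% and 0.99% in the FCN3 virus libraries.

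Of the other claudins among the members, CLDN4 and CLDN12 were higher in both FCN3 virus libraries than in both EV libraries, while CLDN1 and CLDN3 overlapped between the groups. CLDN4, a claudin known to tighten the path for cations, had 42 and 32 counts in EV cells and 101 and 69 with the FCN3 virus. These were 1.153 and 1.912 CPM against 2.978 and 3.469 CPM. Without the block its log2 fold change was 1.16 (SE 0.32), and the quasi-likelihood test of edgeR gave it an adjusted p of 0.0953 over all tested genes. With the block it was 1.15 (SE 0.23), at an adjusted p of 4.06e-05 in edgeR. Without EV replicate 1 the value was 0.74, with an adjusted p of 0.413 in edgeR, the highest of 15 alternative settings, over which it started from 4.06e-05. CLDN12, a claudin that lacks the tail motif by which most claudins bind TJP1 and is linked to calcium passage, was at 28.35 and 25.45 CPM in EV cells and 33.99 and 29.86 CPM with the FCN3 virus. Its log2 fold change was 0.25 (SE 0.12) without the block and 0.25 (SE 0.08) with it, where edgeR gave adjusted p-values of 0.291 and 0.00687. DESeq2 called neither CLDN4 nor CLDN12 with or without the block.

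CLDN1 was at 197.1 and 191.6 CPM in EV cells and 187.3 and 207.7 CPM with the FCN3 virus. The EV libraries lay inside the range of the other group, and the difference within a replicate number was -0.07 on the log2 scale in replicate 1 and 0.12 in replicate 2. The log2 fold change was 0.02 (SE 0.09), at adjusted p-values of 0.907 without and 0.791 with the block in edgeR, so that no difference was detected in the most abundant of the 9 genes. CLDN3, a barrier claudin, was at 2.25 and 2.808 CPM against 1.887 and 3.117 CPM. In both groups replicate 2 was the higher of the pair, and the groups differed by -0.04 on the log2 scale (SE 0.33), at adjusted p-values of 0.959 and 0.806 in edgeR. With 47 to 82 counts per library, a difference as small as this SE was not detectable for CLDN3.

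OCLN was higher with the FCN3 virus in both replicates, by nearly the same amount in each. The protein spans the membrane 4 times like a claudin, without being related to claudins, and takes part in the regulation of the barrier. Its counts were 983 and 368 in EV cells and 2053.32 and 1005.07 with the FCN3 virus, which were 26.97 and 21.98 CPM against 60.53 and 50.53 CPM. Both FCN3 virus libraries stood well above both EV libraries. The mean went from 24.5 ± 3.53 CPM to 55.5 ± 7.07 CPM (SD, n = 2 in each group). In the edgeR fit the level was 2.26-fold higher. Without the block its log2 fold change was 1.17 (SE 0.15), at an adjusted p of 0.0171 in edgeR, which is above the threshold of 0.01. With the block it was 1.18 (SE 0.07, edgeR adjusted p = 4.97e-20), and between libraries of the same number it was 1.16 and 1.20. DESeq2 called it without the block as well (adjusted p = 4.66e-08), and so did edgeR when EV replicate 1 or FCN3 virus replicate 2 was left out (adjusted p = 0.00861 and 0.00957). Over 15 alternative settings the adjusted p of OCLN ran from 4.97e-20 to 0.0428. In both groups OCLN was lower in replicate 2 than in replicate 1, by 0.28 on the log2 scale (-0.28, adjusted p = 0.00208 in edgeR for the replicate number), the only member called for the replicate number. OCLN alone among the members had counts that were not whole, and RSEM divides a read that fits several genes. Set against its partner in the plaque, OCLN was at 10.2 and 8.55 TPM per 100 TPM of TJP1 in EV cells and at 18.2 and 15.1 with the FCN3 virus.

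OCLN and MARVELD2, whose product tricellulin belongs to the same protein family and sits where 3 cells meet, are neighbours on chromosome 5 of GRCh37, with a gap of 48.0 kb and no protein-coding gene between them. MARVELD2 was at 3.403 and 3.106 CPM in EV cells and at 6.368 and 5.681 CPM with the FCN3 virus. Its log2 fold change of 0.88 had an adjusted p of 0.061 from edgeR without the block and 1.06e-05 with it. CLDN3 and CLDN4 are neighbours as well, on chromosome 7, with a gap of 29.3 kb between their GENCODE spans (the counts use RefSeq transcripts). Their difference in response was not tested.

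TJP1 was higher with the FCN3 virus by a small amount that was much the same in both replicates. It was at 302.1 and 293.3 CPM in EV cells and at 377.7 and 381.1 CPM with the FCN3 virus, from at least 4910 counts in each library. The means were 297.7 ± 6.20 CPM and 379.4 ± 2.42 CPM (SD, n = 2 in each group), so the difference was many times the spread within a group. This was 1.27-fold, or 0.35 on the log2 scale (SE 0.08), at an adjusted p of 0.0559 in edgeR without the block and 4.24e-08 with it. Within replicate numbers it was 0.32 and 0.38. F11R, also called JAM-A, an adhesion molecule that helps to set up the junction, was at 39.87 and 49.82 CPM in EV cells and 52.12 and 45.75 CPM with the FCN3 virus. It was higher with the virus in replicate 1 (0.39 on the log2 scale) and lower in replicate 2 (-0.12), so the pairs went in opposite directions. Its log2 fold change of 0.14 (SE 0.14) had an adjusted p of 0.611 in edgeR, or 0.111 when blocked.

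**Figure D3:**
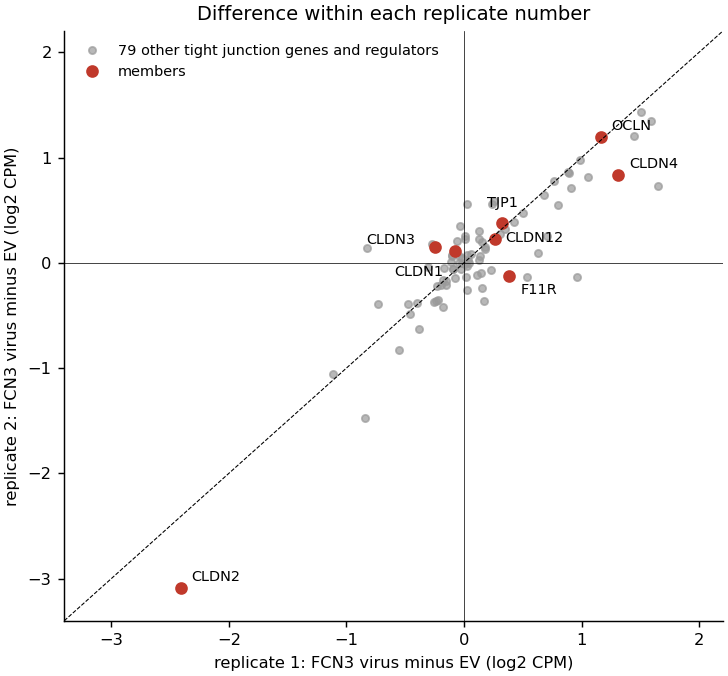
Difference between FCN3 virus and EV on the log2 CPM scale in replicate 1 (horizontal) and in replicate 2 (vertical) for the 8 tested members (red) and 79 other tight junction genes and regulators (grey), with the line of equal differences dashed. CLDN2 is at -2.41 and -3.09, OCLN at 1.16 and 1.20 almost on the line, and F11R at 0.39 and -0.12 in the quadrant of opposite signs.

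Counted over the members, 8 of 9 could be tested. CLDN2 was selected on its fall in this contrast, so its call is not counted. Of the 7 others edgeR called 0 without the block, where it called 0.738% of all tested genes higher and 0.227% lower. Of these 7, 3 had an unadjusted p under 0.05, against 25.1% of all tested genes, and DESeq2 called 1, OCLN, against 7.64%. With the block edgeR called 4 members higher (OCLN, CLDN4, TJP1 and CLDN12) and 0 of the 7 lower, where it called 19.1% of all tested genes higher and 17.1% lower. Both FCN3 virus libraries stood above both EV libraries for these same 4 members and below them for 0 of the 7, against 28% and 26.5% of all tested genes. The median log2 fold change of the 7 members other than CLDN2 was 0.25, and that of all tested genes was 0.02. The low share of calls without the block and the high share with it apply to all genes of these libraries. The members' counts are to be read against them. The 7 others were chosen with earlier results of these data known. Their counts are thus a description and no test of an unselected list.

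**Figure D4:**
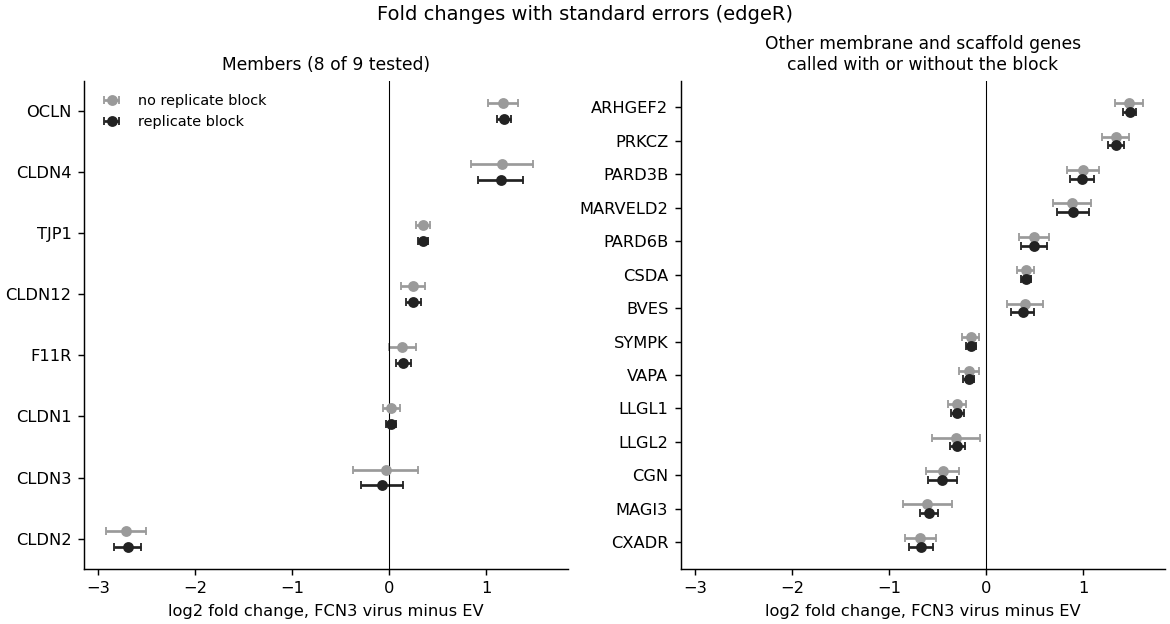
Log2 fold change, FCN3 virus minus EV, from edgeR without (grey) and with (black) the replicate block, with standard errors derived from the F statistic as bars. The 8 tested members are on the left, and other membrane and scaffold genes called in either fit on the right. Among the members the values run from -2.71 for CLDN2 to 1.17 for OCLN without the block and from -2.70 to 1.18 with it, and the bars are shorter with the block.

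**Figure D5:**
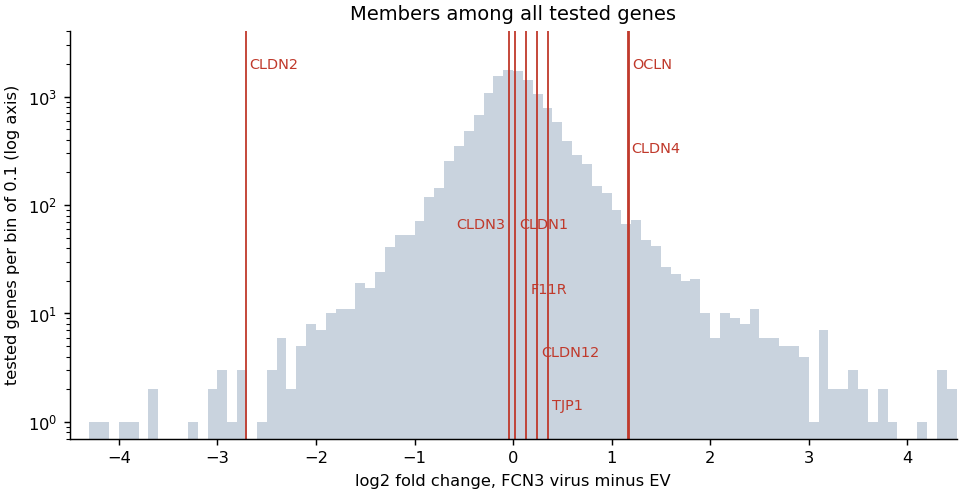
Histogram of the log2 fold changes of the tested genes (grey, log vertical axis, with the farthest values beyond the horizontal axis) with the 8 tested members as red lines. CLDN2 lies at -2.71 in the thin lower tail, where 17 genes are lower still, OCLN and CLDN4 at 1.17 and 1.16, and the other 5 between -0.04 and 0.35 in the main body.

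The other genes of the junction were read from 5 lists, chosen with earlier results of these data known. The lists hold 112 genes with a row, of which 79 were tested. Of these, edgeR called 1 higher and 0 lower without the block, with 22 at an unadjusted p under 0.05, and 18 higher and 14 lower with it, while DESeq2 called 9. The shares of all tested genes given above for these rules, 25.1% at the unadjusted p, 19.1% higher and 17.1% lower with the block and 7.64% in DESeq2, are the background for these counts and for those of each list below. The median log2 fold change of the 79 was 0.02, as for all tested genes. The remaining claudins and claudin-domain genes were mostly absent: of 19 with a row, 8 had under 3 counts in every library and 4 were tested. None of the 4 was called by edgeR with or without the block or by DESeq2, and 0 had an unadjusted p under 0.05. CLDN15 was at 7.436 and 13.62 CPM against 7.547 and 12.37 CPM (log2 fold change -0.05), and CLDN23 at 5.241 and 6.332 CPM against 5.336 and 5.279 CPM (-0.10).

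Among 8 tested membrane proteins of the junction other than claudins, edgeR called 0 without the block, with 4 at an unadjusted p under 0.05, and 2 higher and 3 lower with it, while DESeq2 called 0. MARVELD2 and BVES were the higher pair. The log2 fold change of BVES was 0.40 without the block and 0.38 with it, at adjusted p-values of 0.253 and 0.00699 in edgeR. CXADR, the coxsackievirus and adenovirus receptor, was at 10.84 and 11.65 CPM in EV cells and 7.37 and 6.536 CPM with the FCN3 virus, a log2 fold change of -0.68 (edgeR adjusted p = 0.0684, or 1.18e-05 when blocked). The other 2 that were lower with the block are expressed at a low level and are named after their values were seen: CRB3, a polarity protein, at 1.592 and 2.091 against 0.855 and 0.7039 CPM, and EPCAM, an adhesion molecule that holds claudins at the membrane, at 2.25 and 3.106 against 1.002 and 1.458 CPM.

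The scaffolds and polarity proteins held the 1 gene called without the block. ARHGEF2, also called GEF-H1, a RhoA activator held at the junction by cingulin, was at 32.13 and 41.1 CPM in EV cells and 97.14 and 105 CPM with the FCN3 virus. It rose 2.78-fold, a log2 fold change of 1.47 (SE 0.14), at an adjusted p of 0.00905 in edgeR without and 6.58e-26 with the block. Over the alternative settings its adjusted p ran from 1.17e-39 to 0.0156, the latter in limma on log2(TPM + 1). Of 27 tested genes of this list, 7 had an unadjusted p under 0.05 in edgeR without the block, and DESeq2 called 4. With the block edgeR called 5 higher and 6 lower. Besides ARHGEF2, the higher ones were PRKCZ, the atypical kinase of the PAR complex (13.72 and 16.91 against 37.53 and 39.11 CPM, log2 fold change 1.34), PARD3B (1.00), PARD6B (0.49) and CSDA (0.41), whose product ZONAB binds TJP1. The lower ones were MAGI3 (-0.61), CGN, the gene of cingulin (-0.45), LLGL2 (-0.31), LLGL1 (-0.30), VAPA (-0.18) and SYMPK (-0.16). These fold changes are from the fit without the block, where the edgeR adjusted p ran from 0.0112 to 0.134 for the higher genes after ARHGEF2 and from 0.119 to 0.49 for the lower ones. With the block it ran from 1.7e-19 to 0.00179 and from 4.34e-07 to 0.00995.

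Among 13 tested regulators, 2 were called higher and 3 lower with the block, and 0 without it, where 4 had an unadjusted p under 0.05 and DESeq2 called 1. The higher ones were WNK4, a kinase that phosphorylates claudins (0.81), and ITCH, a ubiquitin ligase of occludin (0.33), and the lower ones were ROCK2 (-0.47), NEDD4L (-0.39) and RHOA (-0.21), at edgeR adjusted p-values of 0.0439 to 0.236 without and 7.63e-11 to 0.000386 with the block. Of 27 tested transcription factors described for claudin and occludin genes, 9 were called higher and 2 lower with the block, and 0 without it, where 7 had an unadjusted p under 0.05 and DESeq2 called 4. The 6 with the largest differences upward were KLF4 (1.47), GATA6 (1.29), JUN (0.93), GRHL3 (0.89), ZEB2 (0.89) and KLF5 (0.68) on the log2 scale, at edgeR adjusted p-values of 0.0129 to 0.336 without and 1.6e-19 to 0.00205 with the block.

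The genes whose pattern over the 4 libraries was nearest to that of CLDN2 were named by the root mean square distance between log2 CPM values centred on each gene's mean, among the 11969 tested genes whose average log2 CPM was 1 or more. They were C11orf86 (distance 0.109), C3 (0.238), TESC (0.354), CPS1 (0.467) and RGS2 (0.482). C11orf86 was at 15.34 and 15.89 CPM in EV cells and 2.27 and 1.76 CPM with the FCN3 virus. C3, the central complement protein, was at 73.49 and 78.31 CPM against 13.12 and 6.385 CPM. The log2 fold changes of the 5 ran from -3.65 to -1.94. CLDN2 was chosen by its fall, so a ranking by nearness to it names genes with a large fall. No claudin or other junction gene was among the 5. No other tested gene of the lists fell that far, so this absence adds nothing to the values above.

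RSEM also gives each gene a transcript length averaged over its isoforms by their abundance, which moves when isoform use moves. CLDN1, CLDN3, CLDN4 and F11R have 1 transcript in the annotation and cannot show this. The length of CLDN2, with 3 transcripts, was 2934.38 and 2935.33 bases in EV cells and 2934.93 and 2921 bases with the FCN3 virus, so its groups overlapped. OCLN was at 6211.75 and 6238.8 bases against 6241.03 and 6227.08 bases, and TJP1 at 7077.75 and 7087.01 against 7064.56 and 7081.35 bases. The mean difference of TJP1, -9.43 bases, was smaller than the range of 16.8 bases within a group, as it was for OCLN, CLDN12 and CLDN2. CLDN7 had too few counts to read its length. The isoform mix of these genes was not seen to differ at this precision.

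CLDN2 lies on the plus strand of chromosome X of GRCh37, from 106143394 to 106174091, and is protein-coding. The genes MORC4 and RIPPLY1 overlap it on the minus strand. MORC4 shares 0 annotated exon bases with CLDN2, and RIPPLY1 shares 341 of its 3412 exon bases. RIPPLY1 had 0 to 3 counts per library, while MORC4 had 8271 and 2517 counts in EV cells and 3758 and 1614 with the FCN3 virus, a log2 fold change of -0.98 (edgeR adjusted p = 0.075, or 4.33e-21 when blocked). The libraries were stranded, but the strand setting of the counting is not given in the sources used here, and the part of MORC4 reads in the CLDN2 counts was not tested. OCLN lies on the plus strand of chromosome 5 from 68788119 to 68853931, while TJP1 spans 29991571 to 30261118 on chromosome 15 (minus strand), and neither shares exon bases with another annotated gene. CLDN1 lies on chromosome 3 from 190023496 to 190040235 and F11R on chromosome 1 from 160965001 to 160991133, both on the minus strand, and F11R shares 1853 of its 5061 exon bases with ENSG00000270149, an annotated gene of the same strand. CLDN12, on the plus strand of chromosome 7 from 90013035 to 90142716, shares 347 of its 6708 exon bases with GTPBP10 and 531 with PTTG1IP2, both on the same strand. The log2 fold change of GTPBP10 itself was 0.20 (edgeR adjusted p = 0.523, or 0.023 when blocked). On chromosome 7, CLDN3 spans 73183327 to 73184600 (minus strand) and CLDN4 spans 73213872 to 73247020 (plus strand), and on chromosome 17 CLDN7 spans 7163222 to 7167302 (minus strand).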

How the data were processed

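RNA-seq of 4 A549 libraries was analysed, 2 EV and 2 FCN3 virus, grouped by the labels. The authors made stranded mRNA libraries, aligned paired-end reads to hg19 with STAR 2.6.1d (version as in the submitters' processing notes) and ran RSEM on RefSeq transcripts. The deposited values are expected counts (estimated counts, not normalized), TPM and FPKM normalized by the authors with RSEM for length and depth, and transcript lengths. FPKM was not used. The strand setting is not given in the sources used here.

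Expected counts were rounded and tested in R 4.3.3 with edgeR 4.0.16 (TMM, filterByExpr, quasi-likelihood test, Benjamini-Hochberg over 14099 genes, FDR 0.01). The code was checked on simulated data, which does not show that the p-values hold in these libraries. DESeq2 1.42.0, limma 3.58.1 and a fit with the replicate number as a block were alternatives. Libraries of the same number deviated together (Pearson's r = 0.806 across 8310 genes, which are not replicates). The pairing comes from the numbers in the labels. A floor of 3 counts equals 0.0823 to 0.179 CPM, counting error only. An exact permutation test of 2 against 2 cannot go below p = 0.333. Members and lists were chosen with earlier results of these data known. Named besides all members were genes called in either fit, up to 6 per list and direction by size, if their average log2 CPM was 1 or more, and the 5 profiles nearest to CLDN2. Locations are from GENCODE on GRCh37, promoters from RefSeq on GRCh38.p14. The results of a few genes under this rule are not reported here.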

Additional observations from a re-analysis of the deposited data

Results flagged for a closer look

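The difference between the replicate numbers, which is not the comparison of the viruses, passed the test in 1 member: OCLN was lower in replicate 2 than in replicate 1 of both groups, with a log2 difference of -0.276 (edgeR adjusted p = 0.00208, with the condition in the model). It is 1 of 8 tested members, beside 22.2% of all tested genes. CLDN3 (0.52, adjusted p = 0.0598) and CLDN12 (-0.17, adjusted p = 0.0833) did not pass in the same edgeR test.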

How the results depend on the processing

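The count of genes called among all tested genes was 136, and 1077 with DESeq2, 5103 with the replicate block, 2257 with the replicate block in DESeq2, 1014 at an FDR of 0.05 and 92 to 267 with 1 library left out. The 267 came without EV replicate 2. The members called numbered 1 (CLDN2, which was selected on this fall), and 2 with DESeq2, 2 at an FDR of 0.05 (the second being OCLN in both), 5 with the replicate block, 3 with the block in DESeq2 (CLDN2, OCLN and TJP1) and 1 to 2 with a library left out. OCLN was added without EV replicate 1 and without FCN3 replicate 2. Of the other junction genes 1 was called, against 9 with DESeq2, 2 without a filter, 32 with the replicate block, 14 with the block in DESeq2, 8 at an FDR of 0.05, 1 to 3 with a library left out (3 without EV replicate 2, 2 without FCN3 replicate 2) and 0 in limma on log2(TPM + 1) or log2(TPM + 0.1), where 25 and 23 had an unadjusted p under 0.05. The calls for the replicate number went from 3132 to 783 with DESeq2. The causes were not tested. CLDN1 changed sign in limma, to -0.0807 with a pseudocount of 1 and -0.0814 with 0.1, and with a library left out it ran from -0.0537 to 0.0947 on the log2 scale, CLDN3 from -0.389 to 0.333, F11R from -0.0138 to 0.291 and LLGL2 from -0.603 to 0.00857, so that each of these 4 changed sign in at least 1 such fit. The fall of the CLDN2 share, -6.99 percentage points, stayed between -7.34 and -6.63. The TJP1 length difference ran from -17.8 to -1.03 bases with a library left out. CLDN2 kept its direction in all 15 alternatives, from -3.04 to -2.34. These alternatives use the same libraries in which it was chosen by its fall, so this is a description and no support for the fall. CLDN7 (3 to 8 counts per library), CLDN4 (32 to 101) and CLDN3 (47 to 82) had the fewest counts of the members.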
